A study of Rattus norvegicus and Sus scrofa and Bos taurus with 188 samples.

Results

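Most of the genes described here encode proteins that the egg secretes, builds its coat from or uses to hold its division in arrest. The others, FIGLA and DAZL, encode a transcription factor and an RNA-binding protein. The full list is BMP15, GDF9, OOSP2, ZP2, ZP3, ZP4, WEE2, MOS, DAZL and FIGLA, which were chosen by gene symbol from the deposited table. Of the 10 names, 9 have a row, out of 15877 gene names in all, and DAZL was not analysed here. The table belongs to morulae of the pig with PG in their title, which other pig samples of the series spell out as parthenogenetically activated, meaning that the egg was triggered to divide with no sperm and the embryo carries maternal chromosomes alone. The study profiled chromatin marks, DNA methylation and RNA in eggs and early embryos of several mammals, with 188 samples in 90 groups in the labels. The RNA of the morula group came from 4 libraries made with Smart-seq2, a method for full-length cDNA from very few cells. The authors merged these 4 libraries into 1 column of FPKM (fragment counts divided by transcript length and by the library's mapped total), so no value below has a replicate spread, and no test between genes or groups is given. The labels give no strain or culture condition for these embryos, and do not say how many embryos went into a library.

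An oocyte grows inside a follicle of somatic granulosa and cumulus cells. It secretes BMP15 and GDF9, growth factors of the TGF-beta family that act on those cells, and surrounds itself with the zona pellucida, a glycoprotein coat that sperm bind and that encloses the embryo until hatching. In the pig this coat is built from ZP2, ZP3 and ZP4. WEE2 and MOS are kinases of the egg: WEE2 places an inhibitory phosphate on CDK1, the kinase that drives entry into division, and MOS feeds a MAP kinase cascade that holds the mature egg at metaphase. FIGLA is a helix-loop-helix transcription factor of the young oocyte, and in the mouse it activates the zona genes. DAZL binds stored messenger RNA in germ cells. After fertilisation or activation, the embryo degrades much of the RNA laid down in the egg while it begins to transcribe its own genes.

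Of the 9 egg genes, 8 stood at 1 FPKM or more, the level used here to call a gene expressed, and 48.8% of all gene names did so. The remaining gene, FIGLA, was listed at 0. None of the 9 lay above 0 and below 1 FPKM. Their median was 16.5 FPKM, against 0.916 FPKM over all gene names. The 8 expressed genes spanned a 125-fold range, and 6 of them exceeded 10 FPKM, a level that 20.2% of all gene names reached. At 5 FPKM the counts were 6 of the 9 and 28.4% of all names, and at 0.5 FPKM 8 of the 9 and 56.5%. The 8 were also expressed with rows summed (50.6% of all names), at 1 TPM or more after rescaling the column to TPM (61.3%) and among names at 0.1 FPKM or more (68.1%). None of these 3 settings could lower the count of egg genes, so they change only the share beside it. The genes of the list were not drawn from the table at random, so these shares describe the list only. In a whole-embryo library, fewer cells holding a transcript and less of it per cell cannot be told apart.

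OOSP2 was the highest of the 9, at 179 FPKM, and ranked 232 of all gene names. WEE2 followed at 65.1 FPKM (rank 763) and BMP15 at 48.1 FPKM (rank 1025), and these 3 lay above 98.5%, 95.2% and 93.5% of the gene names in that order. MOS at 17.7 FPKM (rank 2221), ZP4 at 16.5 FPKM (rank 2331) and GDF9 at 10.2 FPKM (rank 3155) formed a middle group. ZP2 at 5.00 FPKM (rank 4516, just under a threshold of 5 FPKM) and ZP3 at 1.44 FPKM (rank 7037) were the lowest of those expressed. The steps down this order were uneven: OOSP2 stood 2.75-fold over WEE2, BMP15 2.72-fold over MOS and ZP2 3.47-fold over ZP3, while MOS and ZP4 differed by 1.07-fold and WEE2 and BMP15 by 1.35-fold. With 1 merged column, whether neighbours in this order differ by more than the libraries' spread could not be assessed. OOSP2 alone held 52.2% of the summed FPKM of the 9 genes, which together took 0.113% of the FPKM total of the table.

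**Figure D1:**
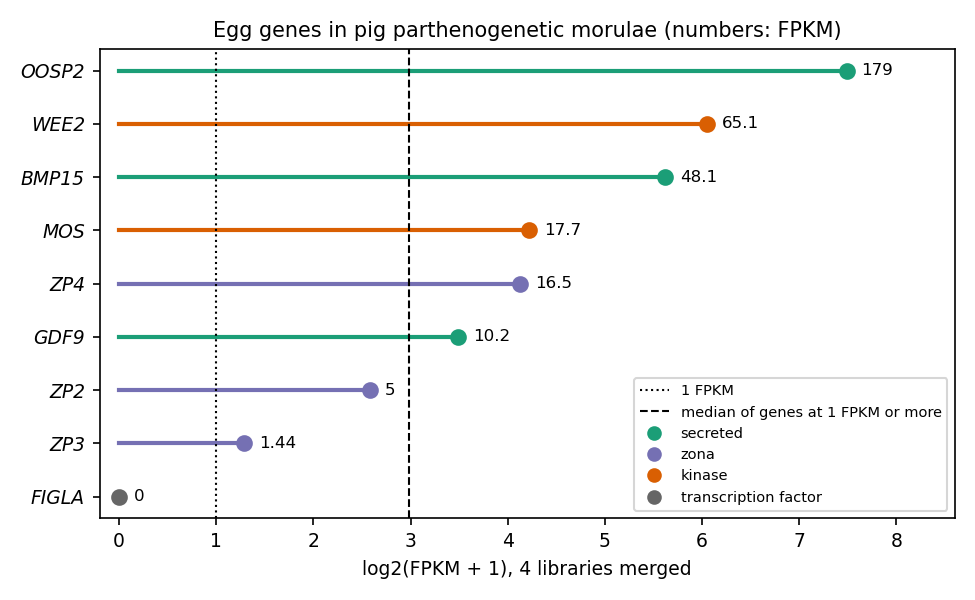
Level of each of the 9 egg genes with a row, as log2(FPKM + 1) in the merged column of 4 libraries, with the FPKM beside each point. Colours mark secreted factors, zona proteins, kinases and the transcription factor; the dotted line is 1 FPKM and the dashed line the median of the genes at 1 FPKM or more, 6.89 FPKM. OOSP2, WEE2 and BMP15 lie farthest to the right, ZP2 and ZP3 lie left of the dashed line, and FIGLA is at 0.

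A shared property that did not enter the choice of the genes was their annotation: each of the 9 has 1 transcript row, as do 44.5% of all gene names. A gene's highest row, the sum of its rows and their mean are therefore the same number for each of the 9, and the identifiers can be given in full. They are ENSSSCT00000046694.1 for OOSP2, ENSSSCT00000017953.3 for WEE2, ENSSSCT00000013461.3 for BMP15, ENSSSCT00000006847.2 for MOS, ENSSSCT00000011102.3 for ZP4, ENSSSCT00000015611.2 for GDF9, ENSSSCT00000008601.3 for ZP2, ENSSSCT00000008432.2 for ZP3 and ENSSSCT00000009112.3 for FIGLA. Of the gene names with 1 row 40.0% reached 1 FPKM, and their median was 0.320 FPKM. Among the 7058 names with 1 row, OOSP2 ranked 109, WEE2 ranked 358 and BMP15 ranked 481. In the same ranking ZP4 stood at 998, ZP2 at 1714 and ZP3 at 2579.

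**Figure D2:**
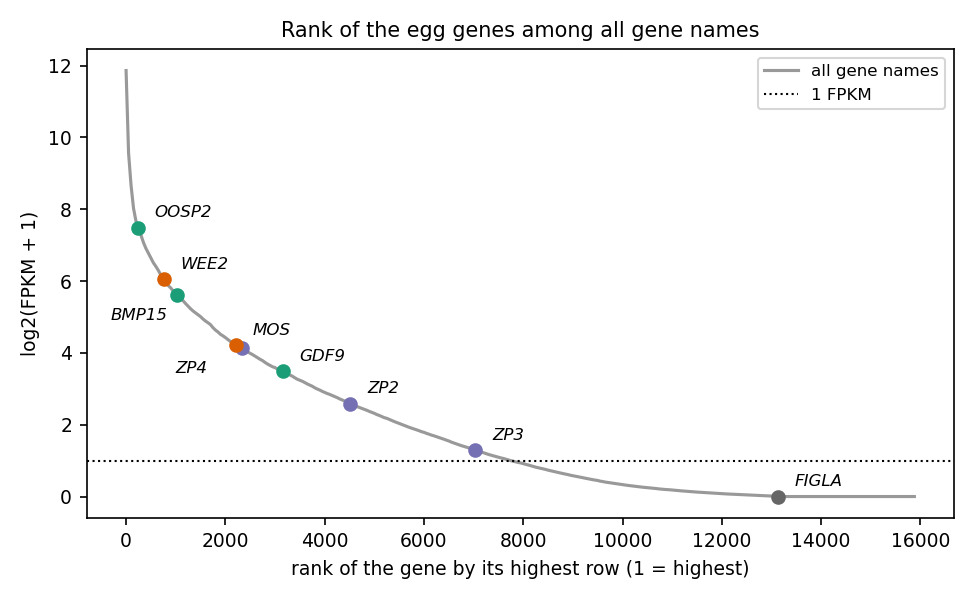
All 15877 gene names in order of their highest row (x axis, rank 1 is the highest) against log2(FPKM + 1). Points mark the 9 egg genes, green for secreted factors, purple for zona proteins, orange for kinases and grey for FIGLA, and the dotted line is 1 FPKM; OOSP2, at rank 232, lies on the steep start of the curve, ZP3 at rank 7037 lies near its crossing of 1 FPKM and FIGLA lies on the flat stretch at 0.

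Among the secreted factors, BMP15 stood above GDF9, at 48.1 and 10.2 FPKM. The fold was 4.72, or 2.13 on the log2(FPKM + 1) scale. The genes ranked next to BMP15 were DDX21 (48.3 FPKM) and TWISTNB (48.2 FPKM) above it and PLP2 (48.1 FPKM) and MED28 (48.0 FPKM) below it, and those next to GDF9 included IPO11, C18orf63 and PAXBP1, all at 10.2 FPKM. The 2 egg ligands were then set beside the rest of their family, a list added for this comparison. Of 25 other TGF-beta family ligands with a row, 4 reached 1 FPKM (7 reached 1 TPM), 11 lay between 0 and 1 FPKM and 10 were listed at 0, with a median of 0.0406 FPKM. BMP15 was higher than each of the 25. GDF9 was lower than 1 of them, GDF3, a ligand known from pluripotent cells, at 24.9 FPKM. The next were BMP4 at 3.11 FPKM, BMP2 at 1.48 FPKM and BMP7 at 1.08 FPKM. The highest of those below 1 FPKM were GDF11, TGFB2 and GDF15, at 0.357, 0.348 and 0.327 FPKM.

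BMP15 and GDF9 signal through paired serine-threonine kinase receptors, which phosphorylate SMAD proteins. Of 7 receptors of the family 6 reached 1 FPKM, none reached 10 FPKM, and their median was 1.40 FPKM. The type II receptor BMPR2, which both ligands use, stood at 1.40 FPKM, the type I receptor BMPR1B, used by BMP15, at 1.34 FPKM, and TGFBR1, the type I receptor of GDF9, at 2.97 FPKM. BMPR2 and BMPR1B were picked out after their values were seen. ACVR2A, an activin type II receptor, was the highest at 4.98 FPKM, and BMPR1A was the one below threshold, at 0.847 FPKM. Each of the 7 receptors thus stood below both ligands. With rows summed they still did, but ACVR2A came to 9.76 FPKM, close to GDF9 at 10.2 FPKM. Of 6 SMAD genes 4 were expressed, with SMAD2, a transducer on the GDF9 side, at 27 FPKM and SMAD5, on the BMP15 side, at 9.73 FPKM. SMAD3, the close relative of SMAD2, stood at 0.231 FPKM. The ligands are made as precursors that proprotein convertases cut, and none of the 3 convertase genes listed reached 1 FPKM: PCSK5 stood at 0.418 FPKM, with FURIN at 0.127 FPKM and PCSK6 at 0.0596 FPKM, both named after their values were seen.

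OOSP2 belongs to a small family of secreted proteins related to PLAC1, a gene named for its expression in the placenta. PLAC1 was the one relative with a row, at 0.0960 FPKM. OOSP2 exceeded it by 7.36 on the log2(FPKM + 1) scale. OOSP1, OOSP3, OOSP4A and OOSP4B were not analysed here. At its rank OOSP2 stood between TRMT112 and EEF2, the translation elongation factor, at 180 FPKM each, and ARL6IP1 and COA6, at 179 FPKM each.

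The 3 zona genes did not stand at one level. ZP4 was the highest at 16.5 FPKM, with ZP2 at 5.00 FPKM and ZP3 at 1.44 FPKM. ZP4 stood 3.30-fold over ZP2 and 11.5-fold over ZP3, which is 1.54 and 2.84 on the log2(FPKM + 1) scale. ZP3 was the expressed egg gene closest to the threshold. The genes ranked next to ZP4 were ARMC10, BUD13, SMIM14 and LENG1, all at 16.5 FPKM. Close to ZP2 ranked CLPB above and KDM6A, a histone demethylase gene, and EIF2AK1 below, all at 5.00 FPKM. ZP3 ranked between IARS2 and RUNDC1 above and SLC25A35 and SYCE2, a gene of the synaptonemal complex, below, all at 1.44 FPKM. Of 9 other genes of the zona domain family and the egg surface with a row, 3 were expressed (5 at 1 TPM or more), with a median of 0.380 FPKM. CD9, a membrane protein that the egg needs for fusion and that many other cells make, stood at 293 FPKM. ASTL, the egg protease that cuts ZP2 after fertilisation in the mouse, stood at 2.77 FPKM, and TECTA, a zona domain protein of the inner ear, at 1.48 FPKM. IZUMO1R, the egg's receptor for sperm IZUMO1, was at 0.551 FPKM, ZPLD1 at 0.380 FPKM and UMOD at 0.150 FPKM. All 3 zona genes with a row were therefore higher than IZUMO1R, ZPLD1 and UMOD. ZP3 was lower than ASTL and TECTA, and CD9 was higher than all 3 zona genes.

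WEE2 stood at 65.1 FPKM, between ZDHHC3 (65.4 FPKM) and RBBP7 (65.3 FPKM) above and POLD3 and FTSJ1 (both 65.0 FPKM) below. The related inhibitory kinase gene PKMYT1 stood at 0.301 FPKM, 216-fold lower than WEE2. On the log2(FPKM + 1) scale, which shrinks differences of low genes, WEE2 was 5.67 higher. WEE1, the relative of WEE2 in body cells, and CDK1 itself were not analysed here. The genes around this switch with a row were expressed in 8 of 10 cases and had a median of 11.8 FPKM. The CDK1-binding subunit gene CKS1B stood at 647 FPKM, the mitotic cyclin genes CCNB1 and CCNB2 at 400 and 28.5 FPKM, and CDC25C, a phosphatase that removes the mark WEE2 places, at 28.3 FPKM. Its relative CDC25B, picked after seeing its value, stood at 5.01 FPKM. CDC25A was listed at 0 in a stretch of 474 rows at the end of the table that are all at 0, so its level is not known from this table. WEE2 was higher than CDC25C and CDC25B and lower than CCNB1.

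MOS stood at 17.7 FPKM, between NOL8 and OSBPL11 (both 17.7 FPKM) and OIP5 and UBALD1 (both 17.6 FPKM). Of 6 kinases below MOS in its cascade 3 were expressed, with a median of 2.82 FPKM. MAP2K1, the kinase that MOS phosphorylates, stood at 14.7 FPKM, and its relative MAP2K2 at 19.3 FPKM. One step further down MAPK3 stood at 0.282 FPKM. MAP2K1, MAP2K2 and RPS6KA3 were named after their values were seen. Among the RSK kinases, which act below the MAP kinases, RPS6KA3 stood at 4.76 FPKM (11.9 FPKM with rows summed), RPS6KA1 at 0.874 FPKM and RPS6KA2 at 0.0263 FPKM. MOS was thus close in level to MAP2K1 and MAP2K2 and higher than the other 4 analysed. A further list held regulators of the anaphase-promoting complex, spindle checkpoint genes and PLK1, and was not limited to genes of the egg arrest. These genes were expressed in 6 of 6 cases and had a median of 38.6 FPKM. The spindle checkpoint gene MAD2L1 stood at 111 FPKM, the mitotic kinase gene PLK1 at 59.7 FPKM, CDC20, an activator of the anaphase-promoting complex, at 39.6 FPKM and FBXO5, an inhibitor of that complex, at 37.7 FPKM. FBXO43, the relative of FBXO5 that keeps the egg at metaphase, was lower than MOS at 3.66 FPKM (picked after seeing its value).

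**Figure D3:**
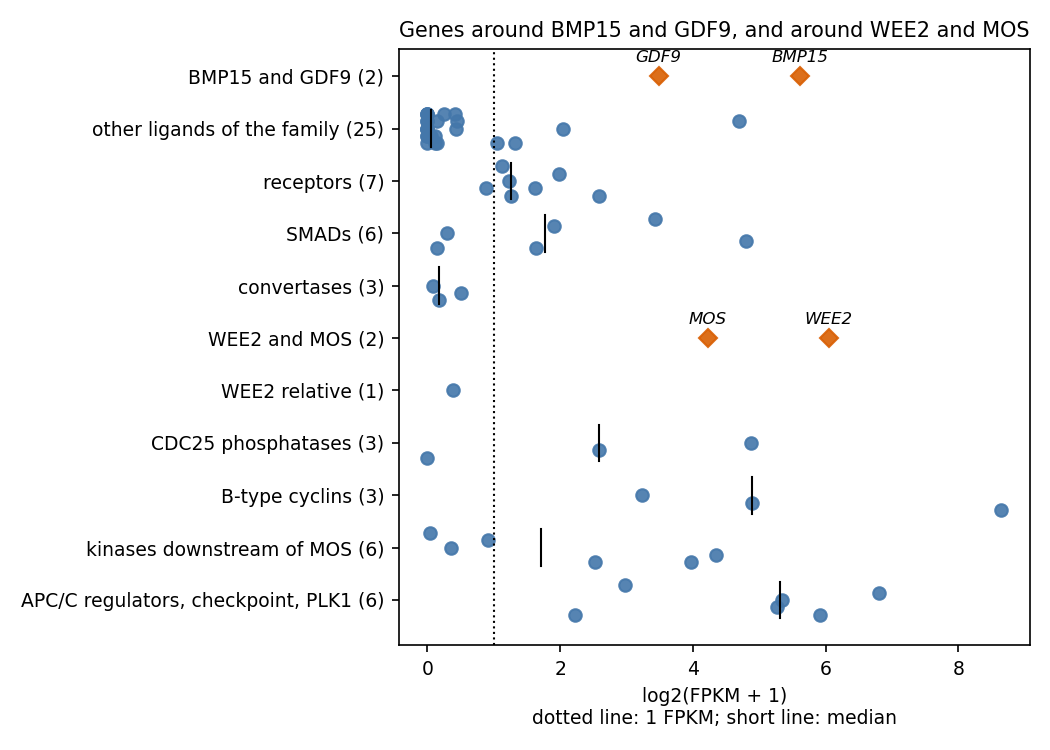
Levels, as log2(FPKM + 1), of BMP15 and GDF9 with the other ligands, receptors, SMADs and convertases of their pathway, and of WEE2 and MOS with the genes around them. Diamonds are the egg genes, circles the other genes with a row (their number is in brackets), short lines the median and the dotted line 1 FPKM. BMP15 lies right of all 25 other ligands, both ligands lie right of all 7 receptors, and WEE2 lies far right of PKMYT1.

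FIGLA was listed at 0, together with 2745 gene names in all (17.3%), and with 28.4% of the names that have 1 row. Its row does not lie in the stretch of zeros at the end of the table. Since FPKM carries no read counts and the depth is unknown, no upper limit can be set on it. FIGLA acts as a dimer with E proteins, and the genes of its 3 candidate partners stood below 1 FPKM in their highest row. TCF3 stood at 0.958 FPKM and TCF12 at 0.926 FPKM, and with all rows summed they came to 2.31 and 2.20 FPKM. TCF4, picked after seeing its value, stood at 0.399 FPKM. The list around FIGLA mixes oocyte factors with E proteins, ID genes, GATA4 and FOXL2, which is also among the cumulus markers. Of its 14 genes with a row 6 were expressed, with a median of 0.976 FPKM. That is 42.9%, close to the 48.8% of all gene names. Many of them lay near the threshold: the count was 10 with rows summed, 12 at 0.5 FPKM and 13 at 1 TPM or more. ID3, which blocks E proteins, stood at 42.0 FPKM and ID1 at 4.45 FPKM, while ID2 was at 0.993 FPKM. The oocyte factor gene LHX8 stood at 6.21 FPKM, TAF4B, a subunit of the general transcription machinery used in germ cells, at 11.8 FPKM, and NOBOX, named after its value was seen, at 1.39 FPKM. The zona genes ZP2, ZP3 and ZP4 stood above 1 FPKM in the same column in which FIGLA was at 0.

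DAZL has no value here. Its relatives and partners are given instead, and they do not show its level. Its family member BOLL stood at 0.757 FPKM. Of 15 genes of this list 8 were expressed, with a median of 1.17 FPKM. That is 53.3%, close to the 48.8% of all gene names. The poly(A)-binding protein gene PABPC1 stood at 78.6 FPKM, DAZAP1, named for its binding to DAZ proteins, at 15.6 FPKM, the translational repressor gene PUM2 at 8.75 FPKM and the germ cell helicase gene DDX4 at 7.96 FPKM. PABPN1L and TDRD7 stood at 0.651 and 0.593 FPKM. NANOS2 and NANOS3, named after their values were seen, were listed at 0, and DAZAP2 was listed at 0 in the stretch of zeros at the end of the table.

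The egg genes were set beside other oocyte transcripts, embryonic genes and markers of the cumulus cells that surround an egg. Of 25 other oocyte genes with a row 16 were expressed (64.0%), and the median was 4.17 FPKM. The linker histone gene H1FOO stood at 90.3 FPKM and BTG4, an adaptor of the deadenylases that clear egg RNA in the mouse, at 42.5 FPKM. CNOT7, a deadenylase subunit, stood at 92.1 FPKM. PDE3A, the phosphodiesterase whose activity lets the oocyte resume meiosis, was at 0.572 FPKM and ZAR1 at 0.461 FPKM. The highest of the 25 was SYCP3, a gene of meiotic chromosomes, at 495 FPKM. OOSP2 was lower than SYCP3 and higher than H1FOO, BTG4 and CNOT7, and WEE2 and BMP15 lay between H1FOO and BTG4. All 8 embryonic activation and morula genes with a row were expressed, and their median was 51.0 FPKM. They included TFAP2C at 194 FPKM, EIF1AX at 175 FPKM, KLF17 at 85.9 FPKM and GATA6 at 52.6 FPKM. These embryonic genes and 8 of the 9 egg genes thus stood above 1 FPKM in the same merged column.

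Of 22 cumulus and granulosa markers with a row 5 were expressed (22.7%, against 48.8% of all gene names). A further 12 lay between 0 and 1 FPKM and 5 were listed at 0. The median of the markers was 0.0411 FPKM. Their highest rows summed to 46.6 FPKM, against 343 FPKM for the 9 egg genes, of which OOSP2 held 52.2%. With all rows of a gene summed, NR5A2 came to 22.1 FPKM, VCAN to 19.1 FPKM and KITLG to 16.1 FPKM, which raises the markers' sum. The 5 at 0 were FSHR, INHA, INHBB, FOXL2 and TNFAIP6, and CYP19A1, STAR and AMHR2 stood at 0.835, 0.300 and 0.205 FPKM. The 5 expressed ones were FST at 16.9 FPKM, VCAN at 10.2 FPKM, KITLG at 9.15 FPKM, NR5A2 at 7.41 FPKM and PTGS2 at 1.22 FPKM, each of which other cell types make too. The low markers were not sorted by how specific they are, and a share of cumulus RNA was not tested. FSHR, INHA, INHBB, FOXL2, TNFAIP6 and PTGS2 were named after their values were seen. OOSP2, WEE2 and BMP15 were each higher than every marker of this list. The other egg genes were not: FST was higher than ZP4, GDF9, ZP2 and ZP3. VCAN, KITLG and NR5A2 were also higher than ZP2 and ZP3. With rows summed NR5A2 and VCAN passed MOS too. The egg and the earlier cleavage stages were not analysed here, so RNA kept from the egg and RNA made by the embryo cannot be told apart.

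**Figure D4:**
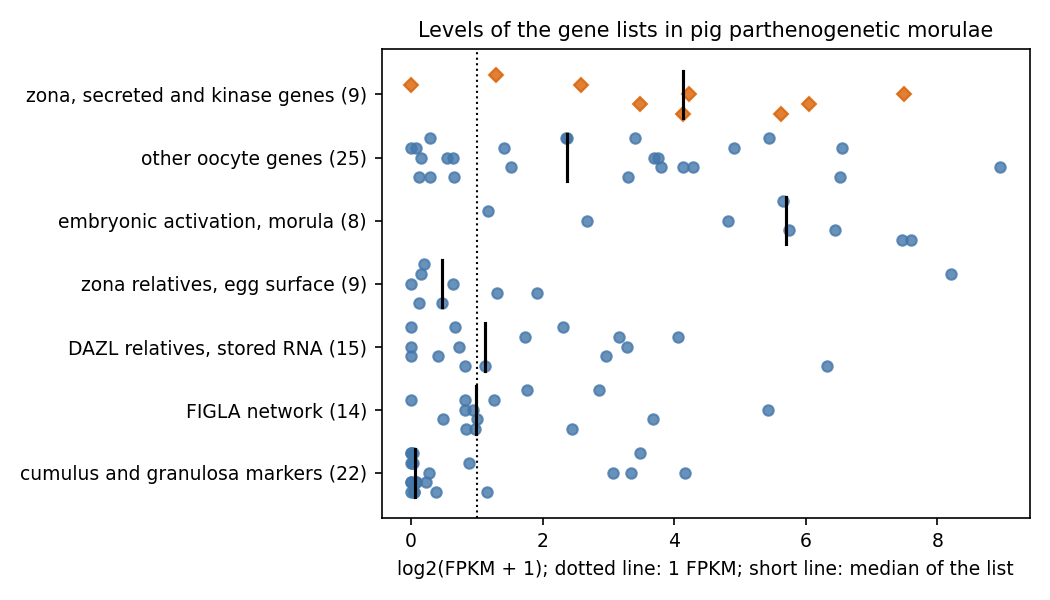
Levels, as log2(FPKM + 1), of the 9 egg genes (diamonds) and of 6 other gene lists (circles), with the number of genes that have a row in brackets, the median of each list as a short line and 1 FPKM as a dotted line. The median of the egg genes, 16.5 FPKM, lies between those of the other oocyte genes, 4.17 FPKM, and of the embryonic genes, 51.0 FPKM, and most cumulus and granulosa markers lie near 0.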

How the data were processed

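Per the file headers the deposited values are FPKM, with 1 row per Ensembl transcript (37571 rows) and 1 column in which the authors merged the 4 libraries of the group. The sources used here do not say whether they merged reads or FPKM values, nor name the annotation or the tool behind the FPKM. The submitters' processing notes name TopHat2 2.1.1 and Cufflinks 2.2.1 among other tools, and the build susScr11 for pig among others. Of the rows, 4534 lay above 0 and under 1e-06 FPKM, so whole reads could not be recovered and the depth is unknown.

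A gene's value was its highest row, and 1 FPKM or more counted as expressed. Ranks run over all gene names, and tied names share a rank. Log2 ratios used a pseudocount of 1. Python 3.11.15 and pandas 2.3.3 were used, and ranking was tested on simulated data. With 1 column there is no spread, SD or p-value. Named are the genes of the list, their rank neighbours, the relatives and partners compared with them, and of each further list the 4 highest genes and up to 3 highest below 1 FPKM. A few genes that fall under it are left unreported. Genes outside this rule are said to be named after their values were seen. The genes and lists were chosen with earlier results of these data known. The list of other TGF-beta family ligands was added after the data were seen, and it shares INHA, INHBA, INHBB and AMH with the cumulus markers. Alternatives were summed rows, mean rows, TPM, other thresholds, a filter at 0.1 FPKM and a pseudocount of 0.1.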

Additional observations from a re-analysis of the deposited data

How the results depend on the processing

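The count of expressed egg genes was 8 with summed rows, with mean rows, after scaling to TPM, among genes at 0.1 FPKM or more, among names with 1 row (an alternative chosen after seeing the data) and at 0.5 FPKM, and 6 at 5 and at 10 FPKM. Each egg gene has 1 row, so summed rows, mean rows and the names with 1 row could not change this count. The filter at 0.1 FPKM, TPM and the threshold of 0.5 FPKM could not lower it. Only the thresholds of 5 and 10 FPKM could. Ranks moved with other genes' rows: OOSP2 ranked 272 with summed and 165 with mean rows, and ZP3 ranked 7397 and 5910. Scaled to TPM (3.28 TPM per FPKM), the levels were 588 for OOSP2, 213 for WEE2, 158 for BMP15, 58.0 for MOS, 54.1 for ZP4, 33.5 for GDF9, 16.4 for ZP2 and 4.72 for ZP3. Log2 ratios kept their sign in all 20 comparisons, most of which could not have turned it. A pseudocount or a common scale cannot change the sign. Summed or mean rows could change the ratio only for WEE2 over PKMYT1, since the genes of the other pairs have 1 row each. With a pseudocount of 0.1 they were 2.23 for BMP15 over GDF9, 1.7 for ZP4 over ZP2, 3.43 for ZP4 over ZP3, 7.35 for WEE2 over PKMYT1 and 9.84 for OOSP2 over PLAC1, and in TPM 2.21, 1.66, 3.27, 6.75 and 8.81. WEE2 over PKMYT1 was 5.62 with summed and 5.89 with mean rows.

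Of 85 counts under an alternative, 65 stayed within 1.5 times, counting the egg genes and settings that could not change a count. The others were these. At 10 FPKM the counts were 1 for TGF-beta receptors and SMADs, 1 for zona relatives, 5 for the CDK1 switch, 6 for the MOS list, 2 for DAZL partners, 2 for the FIGLA network, 10 for other oocyte genes, 2 for cumulus markers and 1 for other TGF-beta ligands. At 5 FPKM they were 2 for receptors and SMADs, 1 for zona relatives, 5 for DAZL partners, 3 for the FIGLA network and 1 for other ligands. In TPM they were 5 for zona relatives, 13 for the FIGLA network and 7 for other ligands. The FIGLA network came to 10 with summed rows and 12 at 0.5 FPKM, and receptors and SMADs to 5 with mean rows. A higher or lower threshold, and TPM, where 1 TPM equals 0.305 FPKM, move such counts by construction. Leaving out a library was not run, since the 4 libraries share 1 column. No paired analysis was possible because the table holds 1 merged column for 1 group.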

Other observations

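Genes of meiosis were unequal in the same column. SYCP3, an axis protein of meiotic chromosomes, stood at 495 FPKM, higher than OOSP2. Of 7 meiotic cohesin, axis and recombination genes 4 reached 1 FPKM, among them SPO11, which makes the breaks of recombination, at 12.9 FPKM, HORMAD1 at 12.0 FPKM and the cohesin gene SMC1B at 9.59 FPKM. The cohesin genes STAG3 and REC8 stood at 0.555 and 0.0480 FPKM and the recombinase gene DMC1 at 0.0845 FPKM. All but SYCP3 and STAG3 were chosen after their values were seen.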
